A study of Mus musculus with 10 samples.

Results

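The genes of the Trem2 programme of lipid-laden macrophages were followed in mouse kidneys after ureteral obstruction. They are 9 genes, Trem2, Tyrobp, Gpnmb, Lgals3, Apoe, Lpl, Cd9, Fabp5 and Cd68, taken by name from a table of 54532 genes. The genes were chosen by name with their FPKM values in both genotypes of these libraries known (FPKM, fragments per kilobase of gene scaled to library size). Their differences between genotypes are therefore a description, with no test of their own. Messenger RNA came from 5 kidneys labelled Padi4-knockout and 5 labelled wild type (WT). Both groups had undergone unilateral ureteral obstruction (UUO), the tying off of 1 ureter, for 10 days, and no unobstructed kidney is analysed here. Padi4 encodes peptidylarginine deiminase 4, which turns arginine into citrulline in histones. The sources used here name no strain, age or sex of the mice, and neither the deleted exons nor the cells that carry the deletion. Whether every library is a different mouse is not stated either, so errors measure the spread between these libraries, which may be technical. Padi4 itself had 6 to 47 reads per library and averaged 0.256 FPKM ± 0.164 in knockout and 0.358 FPKM ± 0.183 in wild-type kidneys (SD, n = 5 each), too few reads to check the genotype labels.

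Macrophages that take up dying cells and lipoproteins carry Trem2 on their surface. Trem2 binds lipids and apolipoproteins and has no signalling tail of its own. It pairs with the adaptor Tyrobp (DAP12), whose phosphorylated tail recruits the kinase Syk. Macrophages in which this pathway is active, described in fat tissue, atherosclerotic plaques and injured organs, express genes for lipid transport (Apoe), triglyceride hydrolysis (Lpl), fatty acid carriage (Fabp5) and lysosomes (Cd68, Gpnmb), with the lectin Lgals3 and the tetraspanin Cd9. Several of these genes are also used by other kidney cells or by fat cells, and whole kidney RNA does not separate them. In such samples fewer cells of a type cannot be told apart from less RNA per cell.

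The promoters of 4 members are shown because Trem2 and Apoe varied together across libraries, Cd68 marks macrophages in general and Gpnmb was the least abundant member. RefSeq promoter windows of GRCm38.p6, 250 bases before to 50 bases after the start of transcription, were found for 6 of the 9 members (Trem2, Gpnmb, Lgals3, Apoe, Cd9 and Cd68). Each is written 5′ to 3′ along the strand of its gene, and Apoe is shown by the first of its 3 RefSeq windows. Capitals mark GAGGAA or its complement TTCCTC, the core letters of sites for the myeloid factor PU.1. They also mark TGANTCA, with N any base, a pattern looser than the AP-1 letters TGACTCA or TGAGTCA.
Trem2, chr17:48346151-48346450, plus strand: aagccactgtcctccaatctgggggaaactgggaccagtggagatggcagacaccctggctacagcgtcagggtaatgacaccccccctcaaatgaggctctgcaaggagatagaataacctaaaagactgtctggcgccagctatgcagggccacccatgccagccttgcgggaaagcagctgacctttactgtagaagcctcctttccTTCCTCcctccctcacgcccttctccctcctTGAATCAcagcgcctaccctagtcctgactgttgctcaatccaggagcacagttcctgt
Apoe, chr7:19699139-19699438, minus strand: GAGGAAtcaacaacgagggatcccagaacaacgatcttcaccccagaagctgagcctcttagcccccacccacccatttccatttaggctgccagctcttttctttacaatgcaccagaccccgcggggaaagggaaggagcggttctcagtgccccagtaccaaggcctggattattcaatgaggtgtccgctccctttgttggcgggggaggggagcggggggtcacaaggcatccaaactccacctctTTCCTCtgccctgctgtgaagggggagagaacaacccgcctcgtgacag
Gpnmb, chr6:49036268-49036567, plus strand: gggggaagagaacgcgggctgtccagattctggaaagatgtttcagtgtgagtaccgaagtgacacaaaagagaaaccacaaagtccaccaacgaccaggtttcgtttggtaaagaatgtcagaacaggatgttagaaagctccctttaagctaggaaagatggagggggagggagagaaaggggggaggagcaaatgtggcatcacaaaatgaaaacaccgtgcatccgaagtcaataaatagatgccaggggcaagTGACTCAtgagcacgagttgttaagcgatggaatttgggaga
Cd68, chr11:69666121-69666420, minus strand: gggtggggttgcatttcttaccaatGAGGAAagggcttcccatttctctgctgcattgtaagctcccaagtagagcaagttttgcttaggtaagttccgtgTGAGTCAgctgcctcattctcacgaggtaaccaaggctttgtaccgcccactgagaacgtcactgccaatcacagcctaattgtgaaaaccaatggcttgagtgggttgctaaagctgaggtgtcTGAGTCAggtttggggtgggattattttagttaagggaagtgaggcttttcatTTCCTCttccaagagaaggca
The 6 genes have 8 windows. On either strand, GAGGAA occurred in the windows of 3 of the 6 genes, Trem2, Apoe and Cd68, or 4 of the 8 windows. It occurred in 28.3% of all 32851 windows. TGANTCA occurred in 3 of the 6, Trem2, Gpnmb and Cd68, or 3 of the 8 windows, and in 7.81% of all windows. The match was TGACTCA in Gpnmb and TGAGTCA in Cd68, but TGAATCA, which lacks the AP-1 letters, in Trem2. The 7.81% counts the looser pattern too. The E-box CACGTG, which MITF and TFEB can bind, was in 0 of the 8 windows and in 7.15% of all windows. The nuclear receptor motif AGGTCA was in 1 of the 8, that of Trem2, and in 16.3% of all windows. The marked matches do not overlap each other. These are matches of letters and were not tested as binding sites.

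The 10 libraries held 15002922 to 16886945 reads, recovered from the deposited values. Wild-type 1 stood apart from the others. On the first principal component of the most variable genes, which held 33.7% of their variance, it scored -22.8, with the other 9 libraries between -6.18 and 11.4. The mitochondrial share of its reads was 8.11%, against 3.18% to 5.79% elsewhere. Its summed level of 16 macrophage markers was 440 FPKM, against 596 to 858 FPKM in the others, and that of 8 proximal tubule markers was 2153 FPKM, against 549 to 1141 FPKM. It was the lowest of all 10 libraries for 5 of the 9 members (Trem2, Tyrobp, Gpnmb, Apoe and Cd68) and the highest for Lpl, so values are also given without it.

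Trem2, Gpnmb and Apoe had higher mean values in knockout than in wild-type kidneys, at 1.73, 1.59 and 1.42 times the wild-type mean FPKM. Without wild-type 1, the lowest library for all 3, the ratios were 1.51, 1.36 and 1.23. No gene passed the test across all genes. Limma found 0 of 13435 genes with a Benjamini-Hochberg adjusted p under 0.05 (0%), the 8 members with a mean of at least 1 FPKM included. Before adjustment, 544 genes (4.05%) had a p under 0.05. Limma-voom, run on recovered reads with the library sizes that the deposited values imply, keeps their scaling between libraries. It gave 0 calls and 528 such genes. The knockout mean of log2(FPKM + 1) was above the wild-type mean for 7 of the 9 members, against 51.6% of all genes tested, and the median difference was 0.07 on that scale, against 0.01 over all genes tested. Cd68, higher by 0.0040 on the log2 scale, was lower by its mean FPKM. Without wild-type 1, 4 of 9 were higher and the median was -0.0046. The 2 genotypes overlapped for all 9 members, where 0.744% of all genes tested did not overlap (0.29% higher and 0.454% lower in knockout). The knockout minus wild-type difference exceeded its standard error for 3 members, Trem2, Apoe and Gpnmb. The share of all genes that do so was not counted, so this count does not set the 3 apart. The plot of levels by library shows every value.

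**Figure D1:**
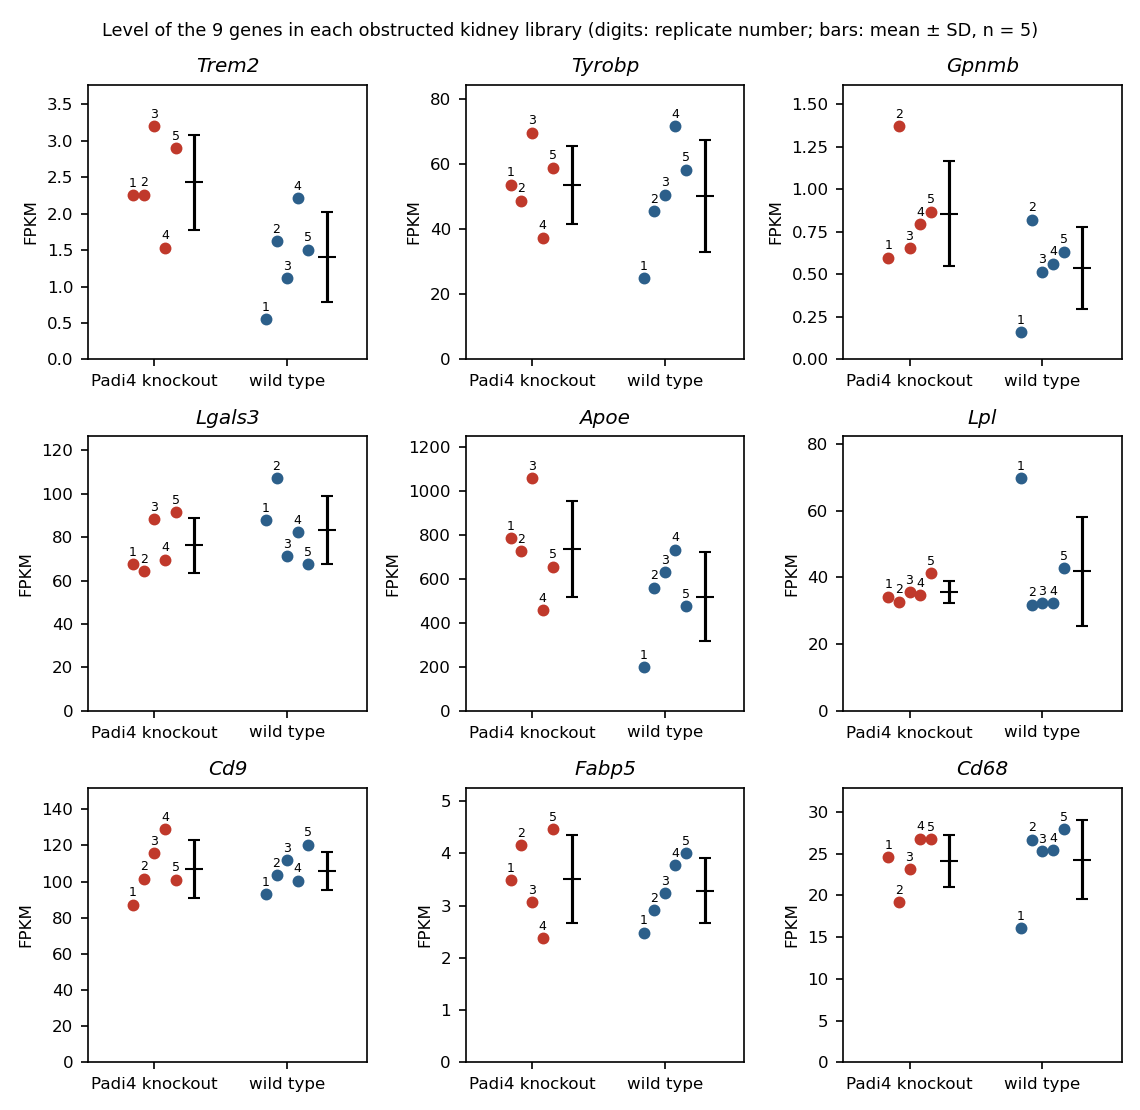
Level of each of the 9 genes in FPKM (linear axes from 0) in 5 Padi4 knockout and 5 wild-type libraries, 1 point per library with its replicate number; bars are mean ± SD. Wild-type 1 is the lowest point for 5 genes and the highest for Lpl, and 4 of 5 knockout points for Trem2 lie above every wild-type point.

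Trem2, the lipid receptor (chr17:48346401-48354147, plus strand, GRCm38), had the clearest separation of the 9 members. It had 2.25, 2.26, 3.20, 1.53 and 2.90 FPKM in knockout 1 to 5, against 0.552, 1.62, 1.11, 2.21 and 1.51 FPKM in wild-type 1 to 5. Knockout 4 alone fell within the wild-type range, and the other 4 knockout libraries were above the highest wild-type library, wild-type 4, though knockout 1 and knockout 2 by less than 0.1 FPKM. The share of all genes with as many knockout libraries above every wild-type library was not counted. The means were 2.43 FPKM ± 0.647 in knockout and 1.40 FPKM ± 0.616 in wild-type kidneys (SD, n = 5 each). On the log2(FPKM + 1) scale, used for every log2 difference of FPKM here, knockout minus wild type was 0.53 (SE 0.19). The means rest on 978 reads in knockout and 552 reads in wild-type kidneys, 37 to 263 per library. Without wild-type 1 the difference was 0.39 (SE 0.16), and over all 10 libraries left out singly it lay between 0.39 and 0.65. The pseudocount of 1 shrinks the change of so low a gene: on the scale of the reads, limma-voom gave a log2 difference of 0.86 (SE 0.31).

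Tyrobp, the adaptor through which Trem2 signals (chr7:30413760-30417585, plus strand), showed a smaller difference, which changed sign without wild-type 1. It had 53.8, 48.8, 69.8, 37.4 and 59.0 FPKM in knockout 1 to 5, against 24.99, 45.6, 50.7, 71.7 and 58.4 FPKM in wild-type 1 to 5. The highest library was wild-type 4 and the lowest wild-type 1, and every knockout library lay between them. The log2 difference was 0.14 (SE 0.25) with all libraries and -0.08 (SE 0.18) without wild-type 1. Whether Trem2 differed more than Tyrobp was not tested.

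Apoe, the apolipoprotein that Trem2 and the LDL receptor family bind, was the most abundant member (chr7:19696109-19699188, minus strand). Its levels were 785, 726, 1058, 459 and 655 FPKM in knockout 1 to 5, against 199, 559, 631, 732 and 475 FPKM in wild-type 1 to 5. Knockout 1 and knockout 3 exceeded every wild-type library, and knockout 4 was below 4 of the 5 libraries of wild type. The means were 737 FPKM ± 218 in knockout and 519 FPKM ± 203 in wild-type kidneys (SD, n = 5 each), with a log2 difference of 0.58 (SE 0.33). Wild-type 1 held less than any other library, and without it the difference was 0.26 (SE 0.22).

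Lpl, the lipase that releases fatty acids from circulating triglycerides (chr8:68880491-68907448, plus strand), was highest in wild-type 1. It had 34.3, 32.8, 35.6, 34.8 and 41.3 FPKM in knockout 1 to 5, against 69.8, 31.9, 32.3, 32.3 and 42.7 FPKM in wild-type 1 to 5. A single library, wild-type 1, set the wild-type mean: the log2 difference was -0.15 (SE 0.19) with it and 0.04 (SE 0.11) without it. Across the 10 libraries, with group means removed, Lpl followed the mean of 8 proximal tubule markers with a Pearson's r of 0.83, and 0.21 over the 9 libraries without wild-type 1. Its r with the mean of 8 fat cell markers was 0.31 over 10 libraries and 0.63 over 9. The part of tubule or fat cell RNA in Lpl was not tested.

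Fabp5, a carrier of fatty acids inside cells (chr3:10012548-10016607, plus strand), was low in this tissue. It had 3.49, 4.16, 3.07, 2.38 and 4.46 FPKM in knockout 1 to 5, against 2.48, 2.91, 3.24, 3.78 and 4.004 FPKM in wild-type 1 to 5. Knockout 4 was below and knockout 2 and knockout 5 above the whole wild-type range. Its log2 difference was 0.07 (SE 0.14). Fabp5 followed the fat cell markers (Adipoq, Plin1, Cidec, Fabp4 and others): with group means removed, its r with their mean was 0.81 over 10 libraries, a value exceeded by 0.35% of all genes tested, and 0.93 over 9 libraries without wild-type 1. Knockout 5, with the highest Fabp5, had a summed fat cell level of 410 FPKM, and knockout 4, with the lowest, had 16.2 FPKM. The share of Fabp5 reads from fat cells was not tested. The Fabp5 pseudogenes in the table are listed at 0 in every library, and reads that match several copies may have been dropped or split.

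Gpnmb, a glycoprotein of lysosomes and the cell surface (chr6:49036546-49070929, plus strand), was below the mean of 1 FPKM required for the test across genes. It had 0.599, 1.37, 0.655, 0.796 and 0.869 FPKM in knockout 1 to 5, against 0.159, 0.821, 0.515, 0.563 and 0.633 FPKM in wild-type 1 to 5. Knockout 2 was highest and wild-type 1 lowest, with 146 and 14 reads, and the other 8 libraries lay between 0.515 and 0.869 FPKM. The log2 difference was 0.27 (SE 0.14, from the fit with no filter), and 0.18 without wild-type 1. On the scale of the reads limma-voom gave 0.75 (SE 0.37).

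Cd68, the lysosomal protein macrosialin (chr11:69664213-69666153, minus strand), averaged nearly the same in both genotypes. It had 24.6, 19.2, 23.2, 26.8 and 26.7 FPKM in knockout 1 to 5, against 16.1, 26.7, 25.3, 25.4 and 27.9 FPKM in wild-type 1 to 5. Wild-type 1 was the lowest and the other 4 wild-type libraries agreed closely, at 26.3 FPKM ± 1.23 (SD, n = 4). The log2 difference was 0.0040 (SE 0.15) with all libraries and -0.13 (SE 0.10) without wild-type 1. Lgals3, or galectin-3, a lectin that gathers on damaged lysosomes and is also made by tubule cells (chr14:47367751-47386160, plus strand), had a lower knockout mean. It had 67.7, 64.2, 88.2, 69.6 and 91.4 FPKM in knockout 1 to 5, against 87.7, 107, 71.3, 82.2 and 67.5 FPKM in wild-type 1 to 5, with a log2 difference of -0.12 (SE 0.15). The wild-type range held 4 of the 5 knockout libraries. Cd9, a tetraspanin found on many epithelial and blood cells (chr6:125460266-125494791, minus strand), was the most even across libraries, with 1.48-fold between the highest and the lowest. Its 87.3, 102, 116, 129 and 101 FPKM in knockout 1 to 5, against 93.0, 103, 112, 100.5 and 120 FPKM in wild-type 1 to 5, gave a log2 difference of 0.01 (SE 0.12). An antisense gene model lies within Cd9, and reads of the 2 strands may not have been separated.

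**Figure D2:**
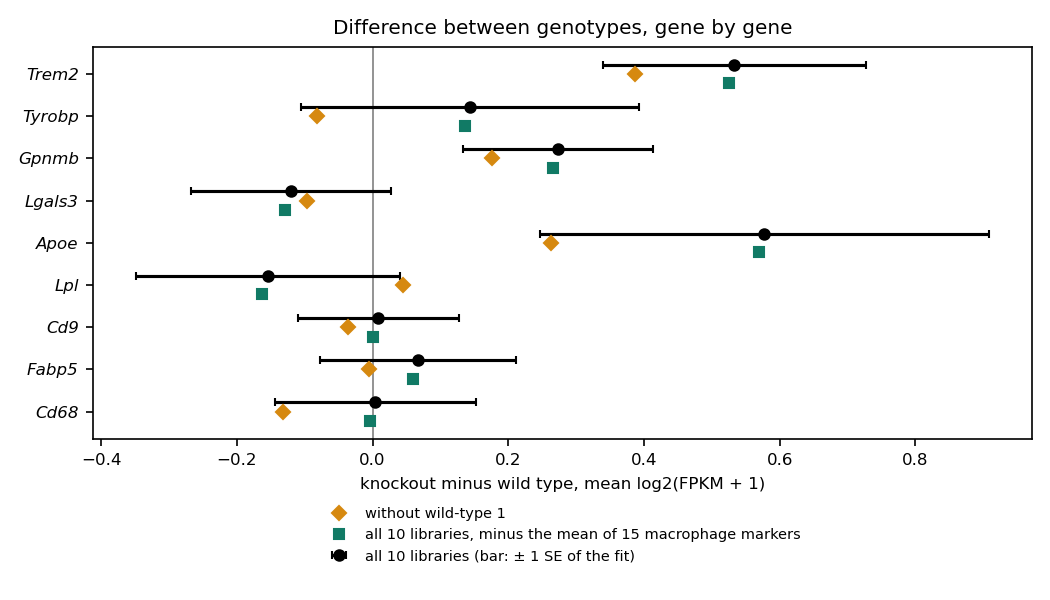
Knockout minus wild-type difference in mean log2(FPKM + 1) for each gene: with all 10 libraries (circles, ± 1 SE), without wild-type 1 (diamonds), and after subtracting the mean of 15 macrophage markers in each library (squares). Trem2, Gpnmb and Apoe are above 0 in all 3, while Tyrobp, Lpl, Cd9, Fabp5 and Cd68 lie on the other side of 0 without wild-type 1.

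Set against macrophage markers in the same library, Trem2 was higher in knockout kidneys with and without wild-type 1. The 15 markers with a mean of at least 1 FPKM, among them Csf1r, the receptor for macrophage growth factor, and the complement genes C1qa and C1qb, had a median log2 difference of 0.01 (8 higher and 7 lower in knockout, 0 called), and of -0.14 without wild-type 1. Csf1r averaged 41.2 FPKM ± 2.36 in knockout and 37.3 FPKM ± 8.45 in wild-type kidneys (SD, n = 5 each, here and below). C1qa averaged 183 FPKM ± 48.2 in knockout and 164 FPKM ± 50.03 in wild-type kidneys, and C1qb 174 FPKM ± 29.6 in knockout and 169 FPKM ± 43.5 in wild-type kidneys. Adgre1 (F4/80) averaged 23.02 FPKM ± 1.70 in knockout and 30.1 FPKM ± 7.29 in wild-type kidneys, a log2 difference of -0.35 (SE 0.15). Log2(FPKM + 1) of Trem2 minus the mean of the markers was -3.06 ± 0.172 in knockout and -3.58 ± 0.227 in wild-type kidneys (SD, n = 5 each). At a pseudocount of 1, that difference of 0.53 was the same to 2 decimals without wild-type 1. The difference of Trem2 itself then fell to 0.39, while the median of the markers fell to -0.14. Other pseudocounts were not tried without wild-type 1. With all libraries, 4 of 5 knockout libraries were above every wild-type library on this relative scale. For Apoe the relative difference was 0.57 with all libraries and 0.41 without wild-type 1, for Gpnmb 0.27 and 0.32, and for Tyrobp 0.14 and 0.06. With a pseudocount of 0.1 and all libraries the relative difference was 0.82 for Trem2, 0.57 for Apoe and 0.64 for Gpnmb, and limma-voom gave 0.86, 0.58 and 0.74. Relative to C1qa, C1qb and C1qc, a marker set chosen after the values were seen, Trem2 differed by 0.42, Apoe by 0.46 and Tyrobp by 0.03. For Cd68 and Cd9 the relative differences were -0.0040 and 0.00037 with all libraries. With 1 library left out they ran from -0.08 to 0.06 for Cd68 and from -0.11 to 0.11 for Cd9. In all, 6 of 9 members were higher in knockout kidneys relative to the markers, as were 49% of all genes tested. Without wild-type 1 it was 9 of 9, where 84.5% of all genes tested were also higher relative to the markers. Relative to the C1q genes it was 4 of 9, against 20.8% of all genes tested.

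**Figure D3:**
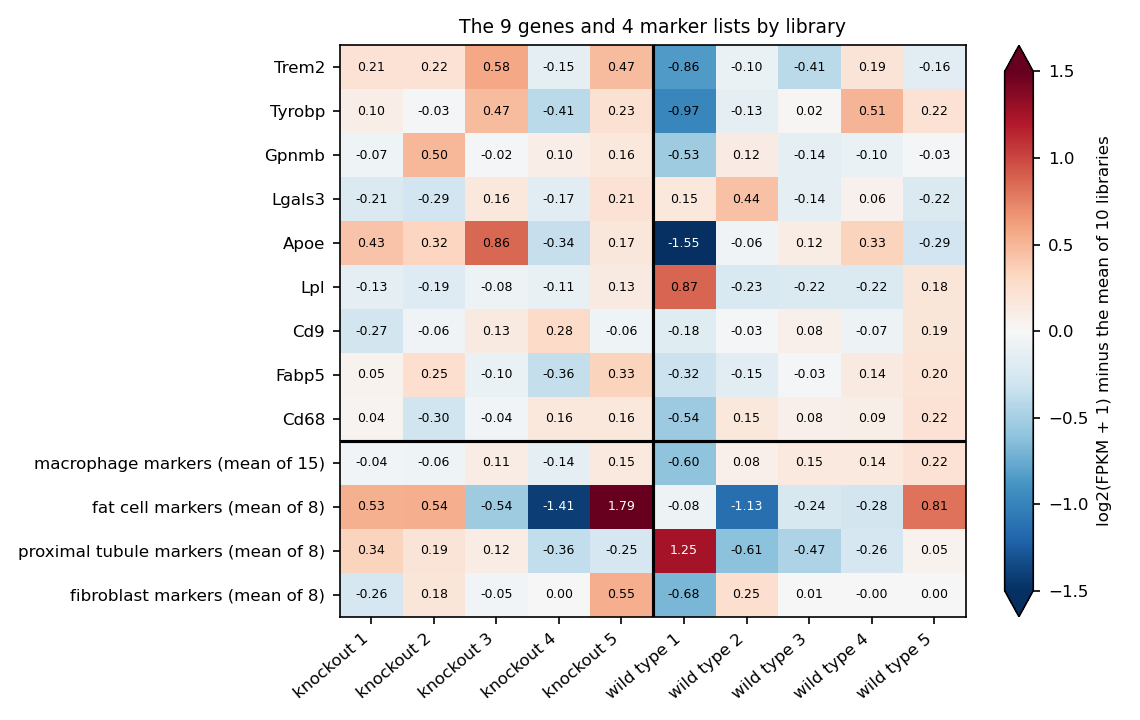
Log2(FPKM + 1) minus the mean of the 10 libraries for the 9 genes (above the line) and for the means of 4 marker lists, with knockout libraries on the left. Wild-type 1 is low for Apoe (199 FPKM), Tyrobp, Trem2 and the macrophage markers and high for Lpl and the proximal tubule markers, and knockout 4 is lowest among knockouts for Trem2, Tyrobp, Apoe and Fabp5.

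Across libraries the members did not move as 1 block. After removal of group means, Trem2, Tyrobp and Apoe varied together: Pearson's r over 10 libraries was 0.93 for Trem2 and Tyrobp, 0.85 for Trem2 and Apoe and 0.91 for Tyrobp and Apoe, and over 9 libraries without wild-type 1 it was 0.87, 0.70 and 0.77. These were the 3 highest of 36 pairs in both cases. Among the other 33 pairs the highest was 0.66 over 10 libraries (Tyrobp and Fabp5) and 0.56 over 9 (Trem2 and Lgals3), and 19 of the 36 pairs changed sign without wild-type 1. In knockout kidneys Trem2, Tyrobp and Apoe were all highest in knockout 3 and lowest in knockout 4. Such r with Trem2 were not particular to these 3 genes. Without wild-type 1, Rab3il1 had an r of 0.90 with Trem2, above that of Tyrobp, and ranked 138 among all genes tested. The share of all genes with a higher r to Trem2 than Tyrobp or Apoe was not counted. Tyrobp had an r of 0.90 with the mean of the 15 macrophage markers and Trem2 an r of 0.81, exceeded by 0.543% and 2.49% of all genes tested. Without wild-type 1 these were 0.76 and 0.66, exceeded by 2.46% and 6.91%. Apoe had an r of 0.85 with all libraries, exceeded by 1.48% of genes, and of 0.42 without wild-type 1, exceeded by 22.6%. Cd68 had 0.81 with all libraries and 0.16 without wild-type 1. The values of 1 library share its dissection and depth, so these r are descriptions, without p.

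**Figure D4:**
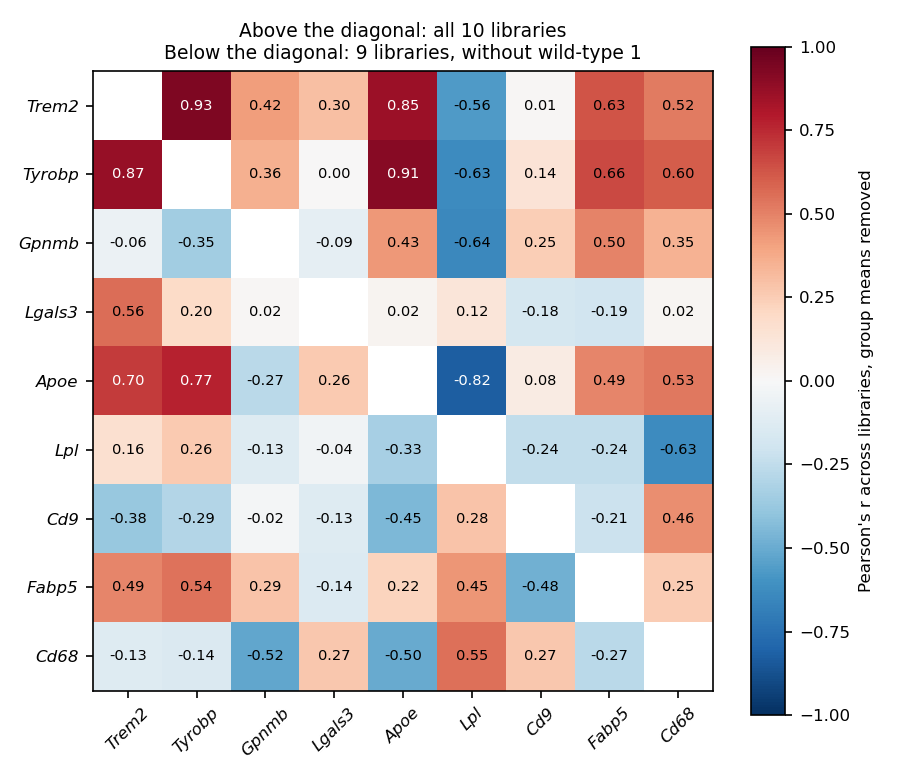
Pearson's r between pairs of the 9 genes across libraries, on log2(FPKM + 1) with group means removed: above the diagonal over all 10 libraries, below it over 9 without wild-type 1. Trem2, Tyrobp and Apoe keep an r of 0.70 or more with each other on both sides, while 19 of the 36 pairs change sign.

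Over the same 10 libraries and after removal of group means, the genes outside the list most like Trem2 by Pearson's r were Arhgap45 (0.97), Psmb8 (0.97), Acsbg1 (0.97), Dact3 (0.95), Cnpy4 (0.95), Tmem101 (0.95), Pstpip1 (0.95), Rcn3 (0.95), Klrg2 (0.95) and Rab3il1 (0.94). Psmb8 is a subunit of the immunoproteasome and Pstpip1 an adaptor of the leukocyte cytoskeleton. Without wild-type 1, 2 of these 10 were still among the closest 10. The mean of the 9 members was most like Arhgap45 (0.98), Clec11a (0.97), Dact3 (0.97), Cst3 (0.96), C1qb (0.96), Gpx7 (0.96), H2-Q4 (0.96), Acsbg1 (0.96), Selplg (0.96) and Was (0.95), of which 0 of 10 remained closest without wild-type 1.

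The order of levels depended on the length used. For all 9 members the deposited gene length equalled the union of every annotated exon in GENCODE M21, retained introns included. For Trem2 that length is 4946 bases, where its principal coding transcript, Trem2-201 with 5 exons, has 1088 bases. FPKM therefore understates the level of the coding message if the reads come from it. Per kilobase of the principal coding transcript Trem2 averaged 11.04 FPKM ± 2.94 in knockout and 6.37 FPKM ± 2.80 in wild-type kidneys (SD, n = 5 each). Fabp5, at 3567 against 987 bases, averaged 12.7 FPKM ± 3.02 in knockout and 11.9 FPKM ± 2.25 in wild-type kidneys. Trem2 and Fabp5 were thus within 1 SD of each other in knockout kidneys, and Trem2 was the lower in wild-type kidneys. From high to low on the deposited scale, the order over 10 libraries was Apoe (628 FPKM), Cd9 (106 FPKM), Lgals3 (79.7 FPKM), Tyrobp (52.0 FPKM), Lpl (38.8 FPKM), Cd68 (24.2 FPKM), Fabp5 (3.40 FPKM), Trem2 (1.91 FPKM) and Gpnmb (0.698 FPKM). The ranges over libraries of neighbours in this order overlapped, except those of Apoe and Cd9, of Lpl and Cd68, and of Cd68 and Fabp5. On coding length Lpl, at 98.7 FPKM, stood above Tyrobp, at 61.5 FPKM, and next to Lgals3, at 104 FPKM, which was within the spread between libraries. Which transcripts the reads came from was not tested.

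**Figure D5:**
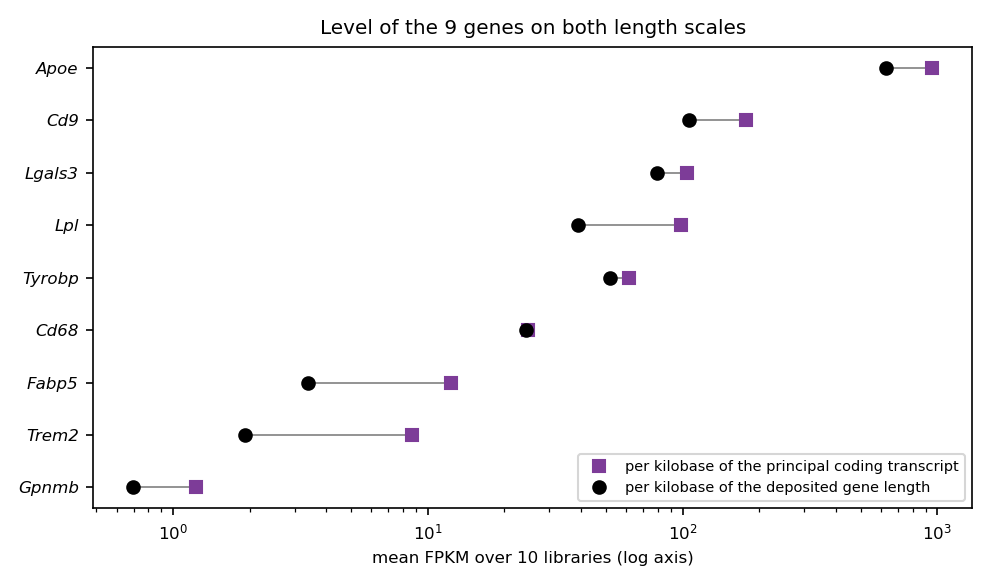
Mean level of each gene over the 10 libraries on a log axis, per kilobase of the deposited gene length (circles) and of the principal coding transcript (squares). The gap is widest for Trem2, from 1.91 to 8.70 FPKM, and nearly closed for Cd68.

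Other genes of the pathway, 63 genes in 5 lists of which 56 had a mean of at least 1 FPKM, held 0 calls, and their median differences lay near 0. Among 25 measured genes reported in lipid-laden macrophages, 13 were higher and 12 lower in knockout kidneys, with a median log2 difference of 0.01. Spp1, or osteopontin, which injured tubules also make, averaged 12117 FPKM ± 2809 in knockout and 12256 FPKM ± 1623 in wild-type kidneys. Plin2, the coat protein of lipid droplets, averaged 63.8 FPKM ± 28.1 in knockout and 70.7 FPKM ± 32.0 in wild-type kidneys, with 127 FPKM in wild-type 1. Lipa, the lysosomal acid lipase, averaged 65.4 FPKM ± 4.36 in knockout and 64.5 FPKM ± 12.01 in wild-type kidneys. Ctsd, a lysosomal protease, averaged 332 FPKM ± 36.6 in knockout and 360 FPKM ± 102 in wild-type kidneys, with 529 FPKM in wild-type 1. These 4 differences were all smaller than the spread between libraries.

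Below the receptor, 11 of 13 genes of Trem2 and Tyrobp signalling or Trem2 shedding had lower and 2 higher values in knockout kidneys, with 0 called and a median of -0.09, or -0.15 without wild-type 1. Over all genes tested 51.6% were higher. The kinase gene Syk averaged 3.54 FPKM ± 0.498 in knockout and 3.87 FPKM ± 0.940 in wild-type kidneys. Plcg2, a phospholipase activated downstream of Syk, averaged 10.04 FPKM ± 0.417 in knockout and 11.7 FPKM ± 1.93 in wild-type kidneys, a log2 difference of -0.19 (SE 0.10). Its highest knockout library, at 10.597 FPKM, was just under its lowest wild-type library, at 10.627 FPKM, and it was the only gene of the 13 whose groups did not overlap, where 0.454% of all genes tested lay lower with no overlap. Inpp5d, a lipid phosphatase that restrains the pathway, averaged 6.10 FPKM ± 0.378 in knockout and 6.54 FPKM ± 1.46 in wild-type kidneys. Vav1, an exchange factor of leukocytes, averaged 5.63 FPKM ± 1.07 in knockout and 6.05 FPKM ± 0.786 in wild-type kidneys. Many of these genes are shared with T cells and B cells. Of 7 other receptors that use Tyrobp, 3 were measured: Clec5a at 0.02, Sirpb1a at -0.11 and Cd300lb at 0.10 on the log2 scale, 0 of them called. Among 8 measured partners of Lpl and Apoe, 6 were higher and 2 lower, with a median of 0.03. Gpihbp1, which holds Lpl on capillaries, differed by 0.25 (SE 0.14), Lmf1, which folds it, by 0.08, Angptl4, which inhibits it, by -0.06 and Apoc1, a neighbour of Apoe, by 0.29 (SE 0.40). Among 7 transcription factors of lysosome and lipid genes, 4 were higher and 3 lower, with a median of 0.05. Mitf differed by 0.06, Tfeb by 0.07, Tfe3 by -0.03 and Tfec by -0.0035.

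Markers of other cells that can hold the members differed between libraries. Summed fat cell markers ran from 16.2 to 410 FPKM in knockout kidneys, with a median of 125 FPKM. In wild-type kidneys they ran from 23.6 to 165 FPKM, with a median of 71.3 FPKM. Of those measured, 8 of 8 were higher in knockout kidneys (median 0.42, and 0.41 without wild-type 1). Knockout 5 held the 410 FPKM, and the other knockout libraries had at most 146 FPKM, below the highest wild-type library. The markers' mean log2(FPKM + 1) was 4.26 in knockout 5 and 1.07 to 3.02 in the other knockout libraries. In wild type it was 1.34 to 3.285. Errors were wide, as for Adipoq at 0.52 (SE 0.75), and a median without knockout 5 was not computed. Summed injured tubule markers were 910 to 1381 FPKM in knockout and 1104 to 1387 FPKM in wild-type kidneys, with 8 of 8 lower on the log2 scale (median -0.18, and -0.27 without wild-type 1). Havcr1 (KIM-1), lower by its mean log2 value at -0.02, averaged 573 FPKM ± 130 in knockout and 572 FPKM ± 61.1 in wild-type kidneys. Fibroblast markers were 473 to 936 FPKM in knockout and 410 to 715 FPKM in wild-type kidneys, with 8 of 8 higher (median 0.17, and 0.03 without wild-type 1). Collecting duct markers, 166 to 283 FPKM in knockout and 163 to 231 FPKM in wild-type kidneys, had a median of 0.04, proximal tubule markers 0.01 and endothelial markers -0.13. Without wild-type 1 these medians were 0.08 for collecting duct, 0.35 for proximal tubule and -0.13 for endothelial markers. The 4 monocyte markers had a median of -0.06, or -0.16 without wild-type 1, with Ly6c2 at -0.41, Plac8 at -0.18, Ccr2 at 0.06 and Chil3 at 0.22. In these lists 0 genes were called and no marker was at 0 in every library, and their part in the members' values was not tested. T and NK cell markers summed to 9.21 to 12.1 FPKM in knockout and 8.65 to 28.2 FPKM in wild-type kidneys (median -0.47). The lowest of these was wild-type 1, and without it the wild-type sums were 18.3 to 28.2 FPKM, above every knockout sum (median -0.62). Neutrophil markers summed to 5.66 to 11.2 FPKM in knockout and 12.1 to 17.6 FPKM in wild-type kidneys, again above every knockout sum (median -0.72, and -0.70 without wild-type 1), with 0 called in either list. Of the 6 neutrophil markers only 3, S100a8, S100a9 and Csf3r, reached a mean of 1 FPKM, and the median is over these. S100a8 and S100a9 averaged 2.30 and 3.35 FPKM in knockout and 4.22 and 6.42 FPKM in wild-type kidneys. Among single genes, 0.454% of all tested lay lower in knockout kidneys with no overlap, with all libraries kept. Such a share was not counted without wild-type 1 or for sums of lists.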

How the data were processed

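Libraries of messenger RNA from 5 knockout and 5 wild-type kidneys were read from 1 deposited table. Reads were aligned with HISAT2 2.0.5, per the submitters' processing notes; the counter, its use of strand and the genome build are not given. The header names no unit. The deposited values were taken to be the authors' FPKM, since value times deposited gene length gave whole reads for 100% of values above 0, within 0.01 reads. The library size each column implies differs from its total (13557357 against 15390728 reads in wild-type 1), so the deposited values carry a scaling between libraries, most of all for that library. Of the table's gene identifiers 99.8% were in GENCODE M21 (GRCm38), as were all 9 members, at the same coordinates.

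Limma 3.58.1 in R 4.3.3 with a variance trend was fitted to log2(FPKM + 1) of the 13435 genes averaging 1 FPKM or more. Genotype was the only term, with Benjamini-Hochberg adjustment over all of these genes at 0.05. The fit was also tried on simulated counts in which genes varied independently. In these libraries many genes vary together, so that trial does not give the power of the test here. Log2 differences are knockout minus wild type and understate the change of low genes. Library totals of 15002922 to 16886945 reads limit the precision of low genes such as Gpnmb. The 9 members and the 15 other gene lists were chosen with earlier results of these data known. Named genes are the members, Padi4, genes from among the first 4 of each list in list order averaging 1 FPKM or more, and the 10 genes closest by Pearson's r to Trem2 and to the members' mean, leaving out clones, models and pseudogenes. Alternatives were a pseudocount of 0.1, other filters and scalings, limma-voom on recovered reads, a replicate block, libraries left out, and, chosen after seeing the data, coding transcript length and the C1q genes as markers.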

Additional observations from a re-analysis of the deposited data

Results flagged for a closer look

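Cd68 in wild-type 1, at 16.1 FPKM, was far from the other 4 wild-type libraries, at 25.3 to 27.9 FPKM. On the log2(FPKM + 1) scale its gap to the nearest of them was 0.82 of the whole range. On that scale it was the only such value among 18 groups of 5 values examined for the 9 genes. Chance gives about 0.9, or 1 in 20. Lpl in wild-type 1, at 69.8 FPKM against 31.9 to 42.7 FPKM in the other libraries, was not flagged on that scale. Wild-type 1 also had the lowest summed macrophage markers, and their part in its Cd68 value was not tested.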

How the results depend on the processing

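The count of genes past the threshold was 0 in all settings tried, the 10 fits without 1 library included; no direction of a called gene could change, since none was called. The count of members with a higher knockout mean of log2(FPKM + 1), 7 of 9, was 4 of the 6 that reach a mean of 5 FPKM and 3 of 9 without wild-type 1 and knockout 5; leaving out 1 library gave 4 to 7, the lowest without wild-type 1. Upper quartile scaling gave 5 and limma-voom 6, where differences close to 0 changed sign. Relative to macrophage markers the count of 6 was 3 of 6 at a mean of 5 FPKM, and 5 to 9 with 1 library left out. The median difference ran from -0.0046 without wild-type 1 to 0.17 without knockout 4, and was -0.02 without wild-type 1 and knockout 5. Genes at an unadjusted p under 0.05 numbered 544 with all libraries, 308 without knockout 3, 1245 without knockout 4, 916 without wild-type 1, 1096 with no filter and 316 on the TPM scale. The differences of Tyrobp, Lpl, Cd9, Fabp5 and Cd68 changed sign without wild-type 1, and those of Cd9, Fabp5 and Cd68 without some other libraries too. Trem2, Apoe and Gpnmb stayed above 0 and Lgals3 below 0 in every setting, at 0.33 to 0.86, 0.26 to 0.74, 0.17 to 0.75 and -0.19 to -0.02. The cause of these changes was not tested.

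The labels number replicates 1 to 5 in both groups. Same-numbered libraries deviated with r of 0.306, 0.111, -0.124, -0.344 and -0.0396, and 1 of 5 knockout libraries correlated best with the wild-type library of its number. No general pairing by number was visible, and these r cannot show whether the libraries were paired by design. With the replicate number as a block 0 genes were called, with 435 at an unadjusted p under 0.05, and the members' differences and their median of 0.07 stayed as they were. Depth limits Gpnmb and Trem2 most, with 14 and 37 reads in their lowest library.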
